A study of Mus musculus with 2 samples.

Results

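The interferon regulatory factors are a family of transcription factors, and 8 of them were followed here: Irf1, Irf2, Irf3, Irf4, Irf5, Irf7, Irf8 and Irf9. They were chosen by gene symbol from the 28692 genes of the deposited count matrices, and all 8 symbols were found once each. The libraries came from subcutaneous tumours of A20, a mouse B lymphoma line, implanted in BALB/c mice, the strain it came from. In the TAK-981 arm the mice had received 1 intravenous dose of TAK-981, 7.5 mg/kg, and in the vehicle arm they had received the carrier, 20% HPbCD, a cyclodextrin. Tumours were taken at 8 h in both arms, and each arm had 1 single-cell library. The labels do not say how many mice each library pooled. TAK-981 blocks the SUMO-activating enzyme, and with it the attachment of SUMO, a ubiquitin-like modifier, to its protein targets.

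Members of the family share an N-terminal DNA-binding domain that recognises GAAA-containing sequences, and they differ in when they are active. IRF3 and IRF7 are switched on by phosphorylation downstream of nucleic acid sensors and drive type I interferon genes. IRF9 is the DNA-binding part of the complex ISGF3, which carries the interferon signal to the target genes, Irf7 among them. IRF1 and IRF2 bind overlapping sites, IRF1 mostly as an activator and IRF2 mostly as a repressor. IRF5 acts downstream of Toll-like receptors in myeloid and B cells, whereas IRF4 and IRF8 act with partner factors in the development of B cells and myeloid cells.

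Barcodes with under 10% of their UMIs (unique molecular identifiers, 1 per captured RNA molecule) from mitochondrial genes were sorted by marker UMIs. T cells had at least 2 UMIs of Cd3d, Cd3e and Cd3g together, and 45 TAK-981 cells and 60 vehicle cells passed. Myeloid cells had at least 5 UMIs of Lyz2, the lysozyme gene, and numbered 39 in the TAK-981 library and 44 with vehicle. A20 cells had a Cd79a UMI, a B cell receptor component, and no Cd3 or Lyz2 UMI, and numbered 1754 in the TAK-981 library and 2191 with vehicle. Detection of markers that the gates did not use did not by itself separate the classes. The 8 further T cell markers were all detected in T cells and in A20 cells of both libraries. A UMI of these markers was seen in 100% of TAK-981 and 98.3% of vehicle T cells. The shares were 5.13% and 9.09% for myeloid cells and 19.0% and 25.9% for A20 cells, in the same order. All 39 TAK-981 and 44 vehicle myeloid cells had a monocyte or macrophage marker UMI. So did 84.4% and 88.3% of T cells and 79.1% and 83.9% of A20 cells. The summed level of that list was 12547 and 12149 CPM (defined below) in myeloid cells. It was 625 and 241 CPM in T cells and 133 and 126 CPM in A20 cells. The host-cell transcript Xist was detected in 38 of 45 TAK-981 and 54 of 60 vehicle T cells and in 30 of 39 TAK-981 and 39 of 44 vehicle myeloid cells, but in 0.513% of A20 cells of the TAK-981 and 1.00% of the vehicle library. Host B cells cannot be told apart from A20 cells by the gate.

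The TAK-981 library held 2396 barcodes and 37470319 UMIs and the vehicle library held 2579 barcodes and 57471750 UMIs. The median depth was lower in the TAK-981 than in the vehicle cells in each class, at 7156 against 9068 UMIs in T cells, 8287 against 10636.5 in myeloid cells and 16195 against 22309 in A20 cells. Levels are therefore given as CPM, the UMIs of a gene per 1000000 UMIs of its class, and shares of cells after thinning each cell to 4000 UMIs, a depth that every cell exceeded. The libraries shared 11 barcode sequences, 10 of which fell in a gate in both. With 1 library per arm no test between arms was possible. The 95% intervals given here cover counting error only, take each UMI as independent and hold no spread between mice. The number of cells in a host class was small, and within a class a change in which cells were captured and a change per cell cannot be told apart.

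Irf7 was the member with the highest ratio of TAK-981 over vehicle in each of the 3 classes, 12.8-fold in T cells, 12.5-fold in myeloid cells and 4.74-fold in A20 cells. Irf2 was at least 2-fold higher in T cells and myeloid cells, and Irf9 in T cells and A20 cells. In T cells 7 of the 8 members had at least 10 UMIs over both libraries, and 3 of these 7 were at least 2-fold higher (Irf2, Irf7 and Irf9), beside 6.32% of the 7868 genes counted that deeply. Weighting each cell equally gave 5 instead of 3, with Irf5 and Irf8 added. In myeloid cells all 8 members were counted that deeply and 2 were at least 2-fold higher (Irf2 and Irf7), beside 10.8% of 6417 genes. In A20 cells 2 of 8 were at least 2-fold higher (Irf7 and Irf9), beside 3.46% of 12250 genes. No member was at least 2-fold lower in any class, where 9.32% of genes in T cells, 14.3% in myeloid cells and 1.5% in A20 cells were. The median log2 ratio over the members was 0.81 in T cells, 0.62 in myeloid cells and 0.55 in A20 cells, against medians over all counted genes of -0.04, -0.09 and 0.06 in the same order.

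**Figure D1:**
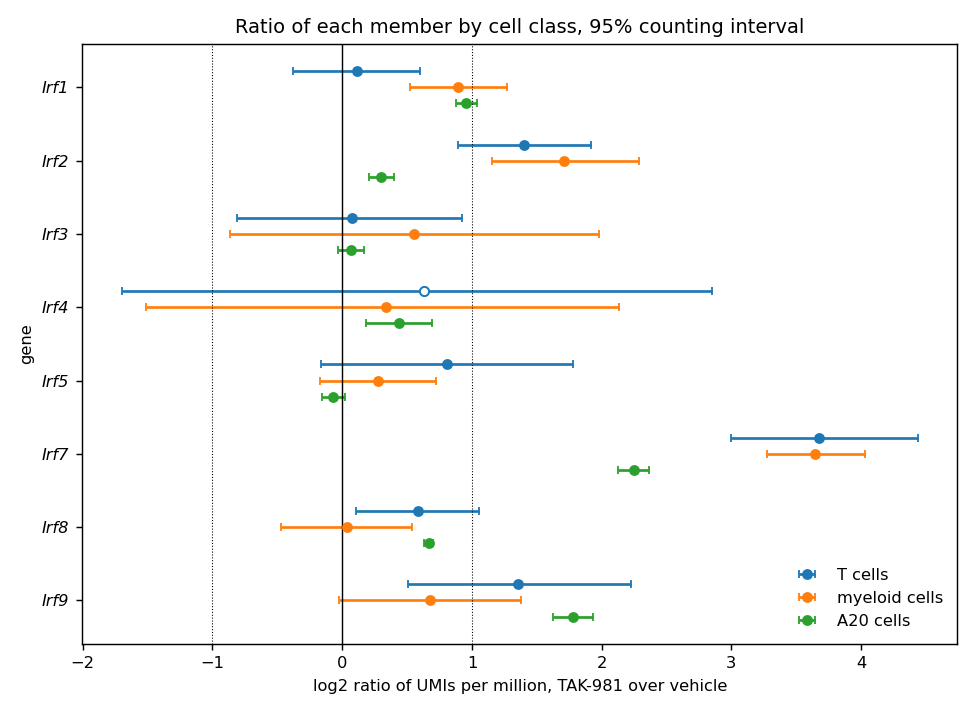
Log2 ratio of CPM, TAK-981 over vehicle (x axis), for each member (y axis) in T cells, myeloid cells and A20 cells; bars are 95% counting intervals, dotted lines mark 2-fold and the open circle is a member under 10 UMIs. Irf7 stands at 3.68 in T cells, 3.64 in myeloid cells and 2.25 in A20 cells, to the right of the other members.

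Promoter windows of all 8 members were found in RefSeq (assembly GRCm38.p6), 11 windows in all because Irf1, Irf8 and Irf9 have 2 each. Each window runs from 250 bases before to 50 bases after a transcript start. They were searched on both strands for GAAA, any 2 bases, GAAA, a pair of IRF core sites, and for TTC, any 3 bases, GAA, the site form of STAT dimers. The first was in 3.44% and the second in 8.30% of all 32851 windows of that length. The stretches that held a match are shown with the match in capitals, together with the stretch before the Irf7 start, which is shown because Irf7 had the highest ratio and its window held neither form.
Irf1 (chr11:53769904-53769952, plus strand): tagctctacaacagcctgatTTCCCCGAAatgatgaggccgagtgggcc
Irf2 (chr8:46739495-46739549, plus strand): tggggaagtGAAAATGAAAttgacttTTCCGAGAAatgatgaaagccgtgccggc
Irf8 (chr8:120736167-120736233, plus strand): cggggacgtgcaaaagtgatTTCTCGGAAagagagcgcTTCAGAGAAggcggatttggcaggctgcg
Irf7 (chr7:141266425-141266524, minus strand): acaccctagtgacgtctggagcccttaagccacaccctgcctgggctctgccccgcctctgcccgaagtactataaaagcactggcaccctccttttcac
The Irf1 match lies 90 bases before the start. In Irf2 the IRF pair lies 241 bases and the STAT form 224 bases before the start, and the matches do not overlap. Irf8 has a STAT form 171 and another 153 bases before the start. The windows of Irf3, Irf4, Irf5, Irf7 and Irf9 held neither form within 300 bases. A match is a string of letters in a window and was not measured as a binding site, and the members without one include Irf7 and Irf9.

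Irf7, the factor that amplifies type I interferon production, was counted at 132 UMIs in TAK-981 T cells and 20 in vehicle T cells. That corresponds to 297 CPM in TAK-981 and 23.2 CPM in vehicle T cells, a ratio of 12.8 (log2 3.68, 95% interval 2.99 to 4.44). In myeloid cells Irf7 had 560 UMIs (1543 CPM) in the TAK-981 library and 66 UMIs (124 CPM) with vehicle, a ratio of 12.5 (log2 3.64, 3.27 to 4.03). In all 3 classes the TAK-981 level lay above the vehicle level by more than counting error. In A20 cells it had 2159 UMIs (66.5 CPM) in the TAK-981 library and 743 UMIs (14.0 CPM) with vehicle, a ratio of 4.74 (log2 2.25, 2.13 to 2.37). The log2 ratio in T cells exceeded that in A20 cells by 1.43 (0.74 to 2.12), and the log2 ratio in myeloid cells exceeded that in A20 cells by 1.40 (1.01 to 1.78). Between myeloid and T cells the difference of log2 ratios was -0.04 (-0.81 to 0.74). The order of the levels was myeloid, T, A20 in both libraries, and each step exceeded counting error. The myeloid level was 5.20 times the T cell level in the TAK-981 library and 5.33 times in the vehicle library. The T cell level was 4.46 times the A20 level in the TAK-981 library and 1.65 times (1.01 to 2.57) in the vehicle library.

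The Irf7 signal was spread over many host cells of the TAK-981 library rather than held by a few. After thinning, 51.1% of TAK-981 T cells (exact 95% interval 35.8 to 66.3) and 13.3% of vehicle T cells (5.94 to 24.6) had an Irf7 UMI. Of myeloid cells 79.5% (63.5 to 90.7) in the TAK-981 and 22.7% (11.5 to 37.8) in the vehicle library had one. In thinned myeloid cells 48.7% of the TAK-981 and 2.27% of the vehicle cells held 5 or more Irf7 UMIs. In the vehicle myeloid cells, by contrast, the signal was concentrated, since 1 of the 44 cells carried 25.8% of the Irf7 UMIs and 3 cells carried 60.6%. In the TAK-981 myeloid cells the top cell carried 9.11% of the Irf7 UMIs and the top 2 cells 17.7%. Without the cell richest in Irf7 in each library the myeloid log2 ratio was 3.95, and over thinned cells it was 3.04. Unthinned, an Irf7 UMI was seen in 27 of 45 TAK-981 and 15 of 60 vehicle T cells, and in 35 of 39 TAK-981 and 17 of 44 vehicle myeloid cells.

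In A20 cells an Irf7 UMI was present in 17.4% of the TAK-981 (15.7 to 19.3) and 5.02% of the vehicle cells (4.14 to 6.02) after thinning, and unthinned in 40.9% of the TAK-981 and 21.3% of the vehicle cells. The distribution had a long tail in both libraries, with the 5% of cells richest in Irf7 holding 46.9% of its UMIs in the TAK-981 library and 48.5% with vehicle. At full depth, 10 or more Irf7 UMIs were found in 39 TAK-981 and 2 vehicle A20 cells. Those 39 cells carried 31.5% of all Irf7 UMIs of the TAK-981 A20 cells. They had a median of 13 Cd79a UMIs and 28 Mzb1 UMIs, none had a Xist UMI, and none had a UMI of Cd14, Csf1r, Fcgr1, Adgre1 or the C1q genes. Their median depth was 27982 UMIs, against 13908 in TAK-981 A20 cells without an Irf7 UMI. A20 cells with a Xist UMI, which may be host B cells or hold host RNA, had 5 Irf7 UMIs in 9 cells of the TAK-981 library and 13 in 22 cells of the vehicle library, a log2 ratio of 0.34 (-1.51 to 1.92).

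**Figure D2:**
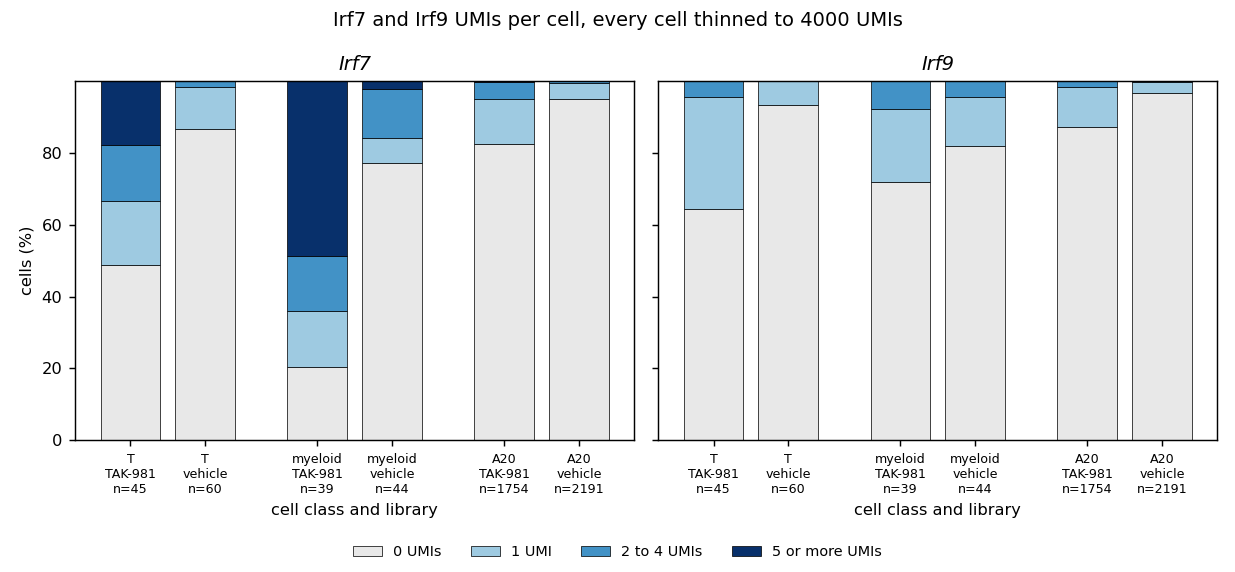
Share of cells (y axis, percent) with 0, 1, 2 to 4 and 5 or more UMIs of Irf7 (left) and Irf9 (right) by class and library, every cell thinned to 4000 UMIs. Among TAK-981 myeloid cells 48.7% hold 5 or more Irf7 UMIs, against 2.27% of the vehicle myeloid cells, while Irf9 rarely exceeds 1 UMI in any class.

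Within the T cell gate Irf7 was higher in cells with and without CD8 transcripts. The 22 TAK-981 and 37 vehicle T cells with a Cd8a or Cd8b1 UMI held 39 and 14 Irf7 UMIs, a log2 ratio of 2.83 (1.91 to 3.82). The 23 TAK-981 and 23 vehicle T cells without one held 93 and 6 Irf7 UMIs, a log2 ratio of 4.45 (3.28 to 5.94). These intervals overlap, and the difference between the subsets was not tested. The T cell gate of the TAK-981 library had more UMIs of Fcer1g (25, against 7 in the vehicle T cells) and Tyrobp (25, against 8), signalling adaptors of NK and myeloid cells. The defining NK markers Ncr1, Klrb1c, Klre1 and Klra8 summed to 7 UMIs in TAK-981 T cells and 21 in vehicle ones, and Lyz2 was seen in 1 of 45 TAK-981 and 0 of 60 vehicle T cells, where a count of 0 allows a Lyz2 UMI in up to 5% of cells by the floor of 3 and up to 5.96% by the exact interval. Over the list of 13 monocyte and macrophage markers, 8 had a UMI in TAK-981 and 7 in vehicle T cells. The summed level was 625 CPM in TAK-981 and 241 CPM in vehicle T cells, with C1qa, C1qb, C1qc and Adgre1 at 0 in both. Of that sum Ly6c2 was 117 UMIs in the TAK-981 library and 67 with vehicle. In the same order Csf1r had 5 and 0 UMIs, Fcgr1 had 4 and 0, and Ccr2 had 35 and 24. Ctss had 64 and 90 UMIs, Cd68 had 3 and 11, and Cd14 had 0 and 1. The part of these transcripts in the Irf7 level was not tested beyond leaving out cells. Csf1r and Fcgr1 were not among the genes used to leave cells out. Without the T cells that had an NK marker, Fcer1g or Tyrobp UMI, 41 TAK-981 and 54 vehicle cells were left and the Irf7 log2 ratio was 3.52.

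Marker levels in the myeloid gate differed between the libraries, and a different mix of cells cannot be told apart from a change per cell. C1qa, C1qb and C1qc, complement genes of macrophages, had 0 UMIs in the 39 TAK-981 cells, against 100, 104 and 93 UMIs from 8 of 44 vehicle cells. Fcgr1, an Fc receptor gene of monocytes and macrophages, was higher in the TAK-981 cells, with 175 UMIs in the TAK-981 library and 44 with vehicle (log2 ratio 2.55, 2.06 to 3.06). Ly6c2, a monocyte marker, was higher too (1.79), and it was at 1.76 in the T cell gate. The macrophage markers Cd68 (-0.75) and Adgre1 (-1.27) were lower, and the other 6 of the 13 listed markers lay between -0.36 and 0.39. Over the whole list of 13 monocyte and macrophage markers, 10 had a UMI in TAK-981 and 13 in vehicle myeloid cells, and the summed level was 12547 CPM in TAK-981 and 12149 CPM in vehicle cells. Neutrophil markers summed to 77 UMIs in TAK-981 myeloid cells and 26 in vehicle ones, with Cxcr2 and Retnlg at 0 in both. Siglech, which defines plasmacytoid dendritic cells, the classical high expressers of Irf7, was at 0 in myeloid and T cells of both libraries. In the A20 gate, 7 vehicle cells and no TAK-981 cell held a UMI of the plasmacytoid markers Siglech, Klk1 or Ccr9, which had 0 UMIs in the TAK-981 library and 46, 103 and 18 with vehicle. Those 7 cells held 3 Irf7 and 126 Irf8 UMIs, and without them the A20 log2 ratios were 2.25 for Irf7 and 0.68 for Irf8. Among myeloid cells without a C1q UMI, 39 TAK-981 and 36 vehicle cells, Irf7 had 560 and 52 UMIs and the log2 ratio was 3.67 (3.25 to 4.10). Without cells holding an S100a8 or S100a9 UMI, 27 TAK-981 and 40 vehicle cells were left and the ratio was 3.50.

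Droplets can also take up free RNA, and most RNA in these suspensions came from A20 cells. Cd79a, which T cells and myeloid cells do not express, had a UMI in 9 of 45 TAK-981 and 13 of 60 vehicle T cells, and in 4 of 39 TAK-981 and 4 of 44 vehicle myeloid cells. In the other direction, 8 of 1754 TAK-981 and 20 of 2191 vehicle A20 cells had a UMI of Cd14, Csf1r, Fcgr1, Adgre1 or the C1q genes. Irf7 was at a lower CPM in A20 cells than in T cells and myeloid cells of the same library. Among host cells with under 5 UMIs of B cell genes the Irf7 log2 ratio was 3.39 (2.65 to 4.23) in 39 TAK-981 and 47 vehicle T cells and 3.52 (3.15 to 3.92) in 36 TAK-981 and 40 vehicle myeloid cells.

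Irf3, the constitutively made partner of Irf7 in interferon induction, showed no difference beyond counting error. It had 19 UMIs in TAK-981 T cells and 35 in vehicle T cells (log2 ratio 0.07, -0.81 to 0.92), and 10 UMIs in the myeloid cells of each library (0.56, -0.86 to 1.98), with a myeloid log2 ratio of 1.14 when the cells with 5 or more B cell UMIs were left out. In A20 cells, where the counts were deepest, Irf3 had 1283 UMIs (39.5 CPM) in the TAK-981 library and 2000 UMIs (37.7 CPM) with vehicle, a log2 ratio of 0.07 (-0.04 to 0.17), so a difference above 1.12-fold lay outside the counting interval. The vehicle A20 level exceeded the vehicle myeloid level 2.01 times (1.09 to 4.21), and no other step between neighbouring classes exceeded counting error.

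Irf9, the DNA-binding subunit of ISGF3, was at least 2-fold higher in A20 cells and T cells. In A20 cells it had 1071 UMIs (33.0 CPM) in the TAK-981 library and 509 UMIs (9.60 CPM) with vehicle, a ratio of 3.44 (log2 1.78, 1.63 to 1.94). In T cells it had 29 UMIs (65.2 CPM) in the TAK-981 library and 22 UMIs (25.5 CPM) with vehicle (log2 1.35, 0.50 to 2.22), and over thinned T cells the log2 ratio was 2.58. The myeloid interval reached just below 0, with 38 UMIs (105 CPM) in TAK-981 and 35 UMIs (65.6 CPM) in vehicle cells (log2 0.68, -0.03 to 1.38). The myeloid log2 ratio was 1.10 lower than that of A20 cells, a difference of -1.10 (-1.78 to -0.43), which is the reverse of the order seen for Irf7. After thinning, 12.9% of TAK-981 and 3.47% of vehicle A20 cells had an Irf9 UMI, and so had 35.6% of TAK-981 and 6.67% of vehicle T cells. The level of Irf9 ran in the order myeloid, T, A20 in both libraries, and only the step between myeloid and T cells in the TAK-981 library lay within counting error (1.61 times, 0.97 to 2.70).

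Stat2, a partner of IRF9 in ISGF3, was at least 2-fold higher in all 3 classes. Its log2 ratios were 1.88 in T cells, 2.71 in myeloid cells and 1.05 in A20 cells. The receptor chain genes Ifnar1 and Ifnar2 and the kinase gene Jak1 stayed under 2-fold in each class, and Tyk2, the other receptor kinase gene, was above it in myeloid cells alone, at 9 UMIs with TAK-981 and 5 in vehicle cells (log2 ratio 1.41, -0.33 to 3.33).

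Irf2, known mainly as a repressor that shares sites with IRF1, separated the host cells from the A20 cells. In T cells it had 79 UMIs (178 CPM) in the TAK-981 library and 58 UMIs (67.2 CPM) with vehicle, a ratio of 2.64 (log2 1.40, 0.89 to 1.92). In myeloid cells it had 89 UMIs (245 CPM) in the TAK-981 library and 40 UMIs (74.9 CPM) with vehicle, a ratio of 3.27 (log2 1.71, 1.16 to 2.29). The A20 levels were closer, at 1534 UMIs (47.3 CPM) in the TAK-981 library and 2034 UMIs (38.4 CPM) with vehicle (log2 0.30, 0.20 to 0.40). The log2 ratio was higher than that of A20 cells by 1.10 (0.60 to 1.60) in T cells and by 1.41 (0.86 to 1.96) in myeloid cells. A thinned Irf2 UMI was found in 53.3% of TAK-981 and 26.7% of vehicle T cells, in 53.8% of TAK-981 and 25% of vehicle myeloid cells, and in 17.1% of TAK-981 and 14.6% of vehicle A20 cells. A single myeloid cell held at most 8 Irf2 UMIs in the TAK-981 library and 4 with vehicle. The top 2 TAK-981 myeloid cells carried 18.0% of the Irf2 UMIs of their class, and the top 3 vehicle myeloid cells 27.5%. In T cells with CD8 transcripts Irf2 had 40 UMIs in the TAK-981 library and 32 with vehicle (log2 1.67, 0.96 to 2.39), and in the T cells without them 39 and 26 (log2 1.08, 0.33 to 1.86). Without C1q-positive myeloid cells the log2 ratio was 1.67 (1.08 to 2.29).

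Irf1, an activator of antigen presentation and other interferon-response genes, was just under 2-fold higher in A20 cells and in myeloid cells. In A20 cells it had 2681 UMIs (82.6 CPM) in the TAK-981 library and 2255 UMIs (42.5 CPM) with vehicle, a ratio of 1.94 (log2 0.96, 0.88 to 1.04). In myeloid cells it had 139 UMIs (383 CPM) in the TAK-981 library and 110 UMIs (206 CPM) with vehicle, a ratio of 1.86 (log2 0.89, 0.52 to 1.27), which was 1.65 without the C1q-positive cells. Over the other settings the myeloid log2 ratio ran up to 1.11, past 2-fold. The T cell gate taken as a whole stood apart from both, with 57 UMIs (128 CPM) in the TAK-981 library and 102 UMIs (118 CPM) with vehicle (log2 0.12, -0.38 to 0.60). The T cell log2 ratio differed from that of A20 cells by -0.84 (-1.32 to -0.37), and that of myeloid cells exceeded it by 0.78 (0.19 to 1.37). Inside the T cell gate the subsets pointed in opposite directions, each with an interval that held 0. T cells with CD8 transcripts had 20 Irf1 UMIs in the TAK-981 library and 68 with vehicle (log2 -0.42, -1.22 to 0.32). Those without them had 37 and 34 (log2 0.62, -0.09 to 1.34). The vehicle T cell richest in Irf1 held 14.7% of the vehicle UMIs. Irf1 levels ran in the order myeloid, T, A20 in both libraries, with each step beyond counting error.

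**Figure D3:**
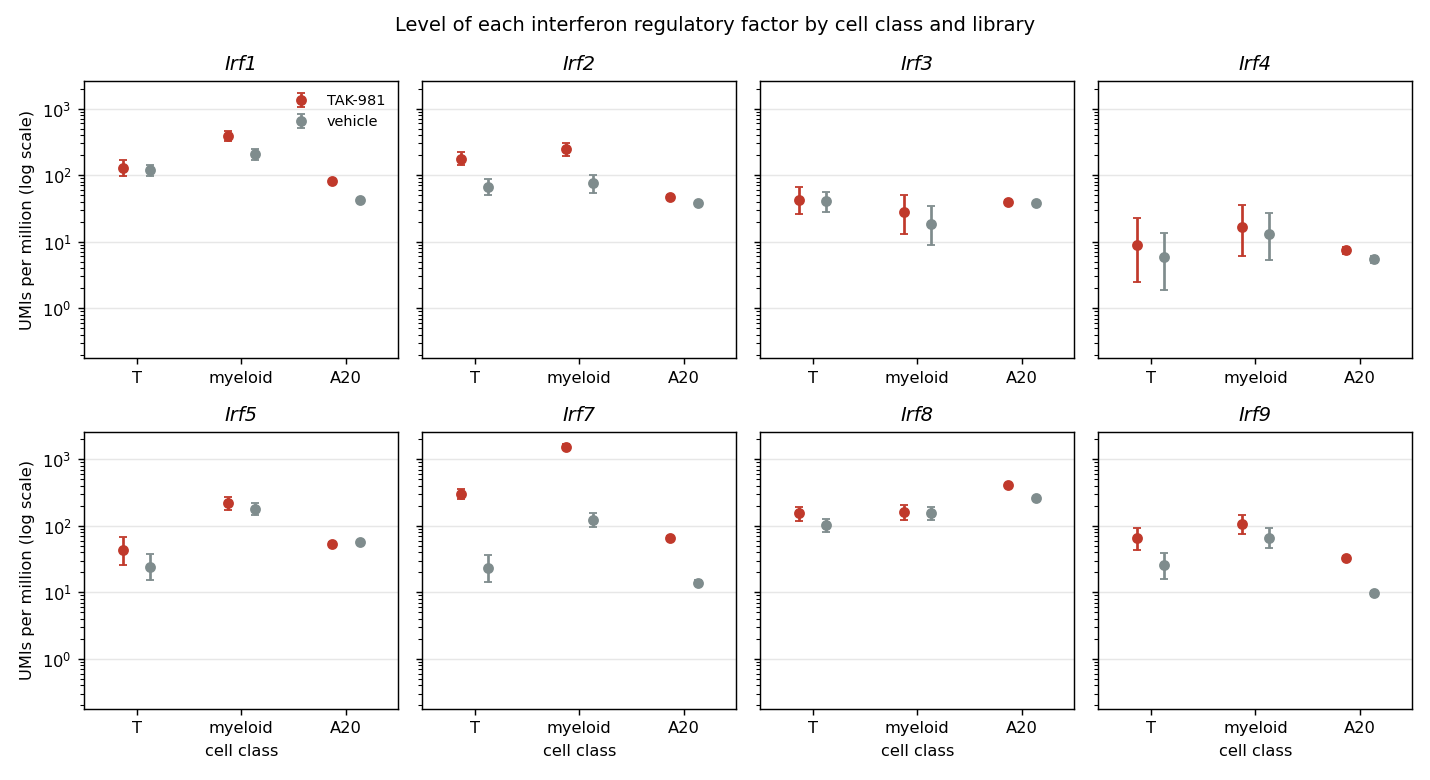
Level in CPM (y axis, log scale) for each member in T cells, myeloid cells and A20 cells of the TAK-981 and the vehicle library; bars are exact Poisson 95% intervals. Irf7 in myeloid cells reaches 1543 in the TAK-981 library, against 124 in the vehicle library, and Irf8 is the member whose highest level is in A20 cells.

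Irf8, which directs B cell and monocyte development, was highest in A20 cells in both libraries. It had 13488 UMIs (415 CPM) in TAK-981 and 13884 UMIs (262 CPM) in vehicle A20 cells, a ratio of 1.59 (log2 0.67, 0.63 to 0.70). The share of thinned A20 cells with an Irf8 UMI was 71.2% in the TAK-981 (69.0 to 73.3) and 58.0% in the vehicle library (55.9 to 60.0). In myeloid cells the CPM was about equal, at 160 in TAK-981 cells and 155 in vehicle cells (58 and 83 UMIs, log2 0.04, -0.47 to 0.54), a log2 ratio below that of A20 cells by 0.63, the difference being -0.63 (-1.11 to -0.14). The T cells had 68 Irf8 UMIs in the TAK-981 library and 88 with vehicle (log2 0.58, 0.11 to 1.06). The 6 TAK-981 and 13 vehicle T cells with 5 or more B cell UMIs held 32 and 53 of these, and the part of A20 RNA in the T cell level was not tested further. In the remaining 39 TAK-981 and 47 vehicle T cells Irf8 stood at 113 CPM and 67.3 CPM.

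Irf5, a factor of Toll-like receptor signalling, was highest in myeloid cells and did not differ beyond counting error in any class. It had 79 UMIs (218 CPM) in TAK-981 and 96 UMIs (180 CPM) in vehicle myeloid cells (log2 0.28, -0.17 to 0.72), and 1743 UMIs (53.7 CPM) in TAK-981 and 2983 UMIs (56.3 CPM) in vehicle A20 cells (log2 -0.07, -0.15 to 0.02). The A20 counts bound the difference there to at most 1.11-fold in the downward and 1.01-fold in the upward direction. In T cells Irf5 had 19 UMIs in the TAK-981 library and 21 with vehicle (log2 0.81, -0.16 to 1.78). That low T cell count was unevenly placed: 17 of the 21 vehicle UMIs, and 7 of the 19 TAK-981 UMIs, were in the T cells with 5 or more B cell UMIs. The other T cells held 12 Irf5 UMIs in the TAK-981 library and 4 with vehicle (log2 2.29, 0.56 to 4.37), and over all T cells thinned the log2 ratio was 3.22.

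Irf4, the factor of plasma cell and effector T cell differentiation, was the member with the lowest counts, and its level did not differ between neighbouring classes beyond counting error in either library. It had 4 UMIs in TAK-981 T cells and 5 in vehicle T cells, and 6 in TAK-981 and 7 in vehicle myeloid cells. In A20 cells it had 240 UMIs (7.39 CPM) in the TAK-981 library and 289 UMIs (5.45 CPM) with vehicle, a ratio of 1.36 (log2 0.44, 0.19 to 0.69). Counts this low by themselves keep the share of positive A20 cells small. An Irf4 UMI was seen in 3.53% of TAK-981 and 2.46% of vehicle A20 cells after thinning, and unthinned in 10.4% and 9.81%. The top 5% of cells held 60.4% of the UMIs in the TAK-981 library and 63.7% with vehicle. Whether so few UMIs were more concentrated than their number implies was not tested.

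**Figure D4:**
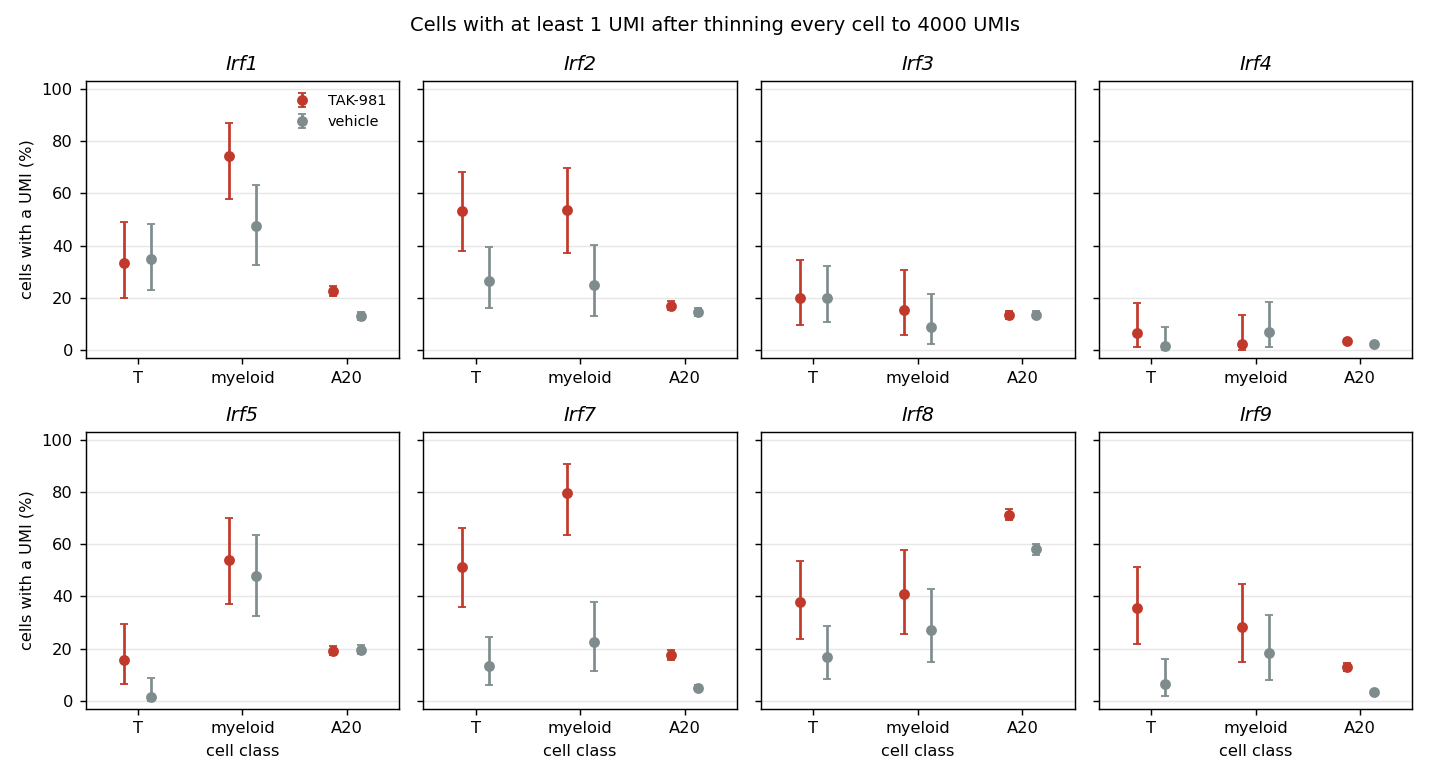
Share of cells (y axis, percent) with at least 1 UMI of each member after thinning to 4000 UMIs, in T cells, myeloid cells and A20 cells of the TAK-981 and the vehicle library; bars are exact binomial 95% intervals. The intervals of the 2 libraries are apart for Irf7 in all 3 classes, with 51.1% against 13.3% of T cells, 79.5% against 22.7% of myeloid cells and 17.4% against 5.02% of A20 cells.

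Genes that act around the family were read from 9 lists by role, and their counts and medians stand beside the shares and medians of all genes given above. Of the ISGF3 target genes, 13 of 13 counted with at least 10 UMIs in T cells, 16 of 16 in myeloid cells and 13 of 14 in A20 cells were at least 2-fold higher. Their median log2 ratios were 4.07 in T cells, 4.87 in myeloid cells and 3.39 in A20 cells, with genes at 0 UMIs in one library entered at their bound against 3 UMIs. In T cells the highest ratios were those of Ifit1, an antiviral RNA-binding protein, with 114 UMIs in the TAK-981 library and 2 with vehicle, of Isg15, a ubiquitin-like modifier, with 496 and 17, of Rtp4 with 56 and 2, and of Usp18, which removes ISG15, with 52 and 3. Rsad2, an antiviral enzyme, had 66 UMIs in TAK-981 T cells and 0 in vehicle ones, at least 42.7-fold higher against a floor of 3 UMIs over the class. In myeloid cells Rsad2 had 629 UMIs in the TAK-981 library and 3 with vehicle, Cmpk2 had 169 and 1, Ifit3 had 151 and 1, and Ifit2 had 270 and 2. Myeloid Ifit1 had 311 UMIs with TAK-981 and 0 in vehicle cells, at least 153-fold higher by the same floor. In A20 cells Mx1, an antiviral GTPase, had 133 UMIs in the TAK-981 library and 1 with vehicle, Ifit3 had 126 and 1, Rtp4 had 182 and 5, Ifit1 had 141 and 7, and Ifi44 had 16 and 1. The target that stayed under 2-fold in A20 cells was Bst2, at 233 CPM in the TAK-981 and 175 CPM in the vehicle library (log2 0.41). Ifit3 has a near-identical copy, so its count is uncertain.

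Targets attributed to IRF1 were less far apart between the libraries, with 4 of 12 in T cells, 8 of 13 in myeloid cells and 2 of 13 in A20 cells at least 2-fold higher and medians of 0.68, 1.02 and 0.28. The T cell median stood at 0.68 while Irf1 itself was at 0.12 there, with Gbp2 at 3.21, Socs1 at 1.92, Cd274 at 1.51 and Tapbp at 1.14. In A20 cells the 2 were Nlrc5 (log2 1.15), an activator of MHC class I genes, and Gbp2 (1.14), while Ciita, the activator of MHC class II genes, was at -0.31, with 357 UMIs in the TAK-981 library and 722 with vehicle. Of the targets attributed to IRF4 and IRF8, 1 of 5 in T cells, 0 of 6 in myeloid cells and 0 of 8 in A20 cells were at least 2-fold higher. That gene was Cybb, a subunit of the phagocyte oxidase, at 17 UMIs in TAK-981 T cells and 12 in vehicle ones, and the medians were 0.36, 0.22 and 0.22.

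**Figure D5:**
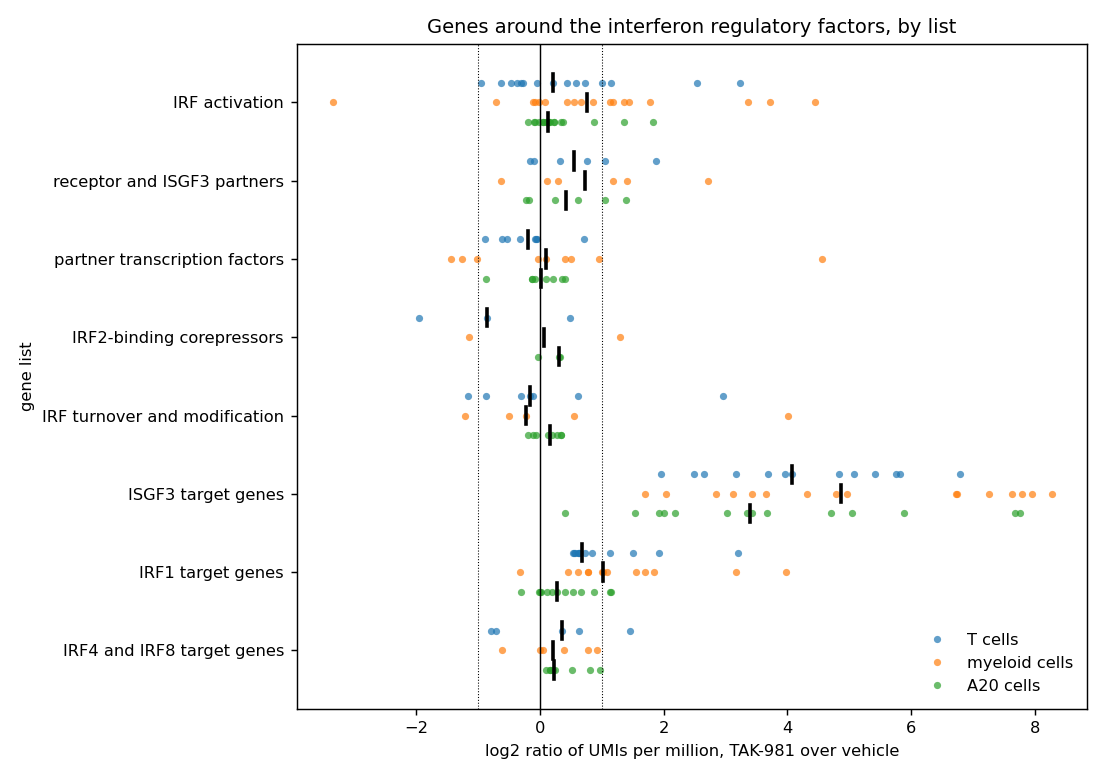
Log2 ratio of CPM, TAK-981 over vehicle (x axis), for every gene with at least 10 UMIs of 8 lists (y axis) in T cells, myeloid cells and A20 cells; points are genes and black marks are medians. The ISGF3 target genes have medians of 4.07, 4.87 and 3.39 to the right of the medians of the other lists; the list of type I interferon genes had no gene with 10 UMIs and is not drawn.

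Upstream of the family, 2 genes for cytoplasmic sensors of RNA were higher in all 3 classes. Ddx58, which encodes RIG-I, had log2 ratios of 3.24 in T cells, 4.44 in myeloid cells and 1.83 in A20 cells, and Ifih1, which encodes MDA5, of 2.54, 3.73 and 1.36. Mb21d1, which encodes the DNA sensor cGAS, had 21 UMIs in TAK-981 myeloid cells and 3 in vehicle myeloid cells (log2 3.36, 1.62 to 5.75), and its intervals held 0 in T cells (1.15, -0.51 to 2.84) and A20 cells (0.88, -0.18 to 1.95). The endosomal sensor gene Tlr7 had 6 UMIs in the TAK-981 library and 4 with vehicle in myeloid cells (1.14, -0.93 to 3.41), and Tlr3 stayed under 10 UMIs in every class. The adaptor gene Myd88 was higher in myeloid cells, with 127 UMIs in the TAK-981 library and 69 with vehicle (log2 1.44, 1.00 to 1.88), and close to equal in A20 cells (-0.01). The kinase gene Tbk1 had intervals that held 0 in T cells and myeloid cells, and Irak1, a kinase of Toll-like receptor signalling, was lower in myeloid cells, with 1 UMI in the TAK-981 library and 15 with vehicle (log2 -3.35, -8.75 to -0.65). Over the 20 activators, 3 of 15 in T cells, 8 of 18 in myeloid cells and 2 of 18 in A20 cells were at least 2-fold higher, with medians of 0.21, 0.76 and 0.14. The type I interferon genes themselves, 15 of them, had 0 UMIs in the T cells and myeloid cells of both libraries and 0 in TAK-981 and 2 in vehicle A20 cells.

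Of the partner transcription factors, none of 8 in T cells and none of 8 in A20 cells was at least 2-fold higher or lower. Of 9 in myeloid cells, Batf2 was higher (16 UMIs with TAK-981 and 1 in vehicle cells), and Batf, Tcf3 and Cebpb were lower, Cebpb with 94 UMIs in the TAK-981 library and 279 with vehicle (log2 -1.01). Cebpb was also the lowest of all listed genes in A20 cells, with 941 UMIs in the TAK-981 library and 2820 with vehicle (log2 -0.88, -0.98 to -0.77). Among the corepressors that bind IRF2, Irf2bp2 had 2 UMIs in TAK-981 T cells and 15 in vehicle T cells (log2 -1.95, -5.12 to 0.15), and 8 in TAK-981 and 26 in vehicle myeloid cells (-1.14, -2.50 to 0.04), opposite in direction to Irf2 in those classes but within counting error. In A20 cells Irf2bp2 was at 0.33. Irf2bpl had 10 UMIs in TAK-981 myeloid cells and 6 in vehicle ones (1.29, -0.31 to 3.04). Among 8 genes for turnover or modification of the family, Trim21, a ubiquitin ligase that acts on several members, was the only one at least 2-fold higher among those with 10 UMIs in T cells and myeloid cells, at 16 UMIs in TAK-981 T cells and 4 in vehicle ones and 11 in TAK-981 and 1 in vehicle myeloid cells, and its A20 log2 ratio was 0.28. Pias4, a SUMO ligase, had 3 UMIs in TAK-981 T cells and 13 in vehicle T cells (log2 -1.16, -3.61 to 0.70).

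Single A20 cells, thinned to 4000 UMIs, were also split by whether they held a UMI of a member, and the UMIs of the ISGF3 targets were counted on both sides. Bst2 alone made up 58.4% of these target UMIs in the TAK-981 library and 88.9% with vehicle. In the TAK-981 library the 306 cells with an Irf7 UMI held a mean of 3.54 target UMIs, and the 1448 cells without one held 1.03. In the vehicle library the 110 cells with an Irf7 UMI held 1.05 target UMIs and the 2081 without one held 0.79. A target UMI was seen in 78.4% of Irf7-positive and 55.2% of Irf7-negative TAK-981 cells, against 55.5% and 49.6% of the vehicle cells. For Irf9 the means were 2.70 in the 226 positive and 1.29 in the 1528 negative TAK-981 cells, and 1.34 and 0.78 in the vehicle cells. Irf1 (2.05 in positive and 1.30 in negative TAK-981 cells), Irf2 (1.84 and 1.40), Irf4 (1.79 and 1.46), Irf5 (1.88 and 1.37) and Irf8 (1.61 and 1.13) had the same direction in the TAK-981 library. There Irf3 had the opposite one, with 1.26 in positive and 1.50 in negative cells. For Irf5 the share of TAK-981 cells with a target UMI was about equal, at 59.2% of positive and 59.3% of negative cells. The vehicle means were 0.98 in positive and 0.78 in negative cells for Irf1, 0.82 and 0.80 for Irf2, and 0.83 and 0.80 for Irf3. They were 0.84 and 0.79 for Irf5 and 0.83 and 0.76 for Irf8. Vehicle Irf4 was reversed, at 0.50 in 54 positive and 0.81 in 2137 negative cells, and Bst2 made up 0.39 and 0.72 of these 2 means. Over the 15 targets other than Bst2, a recount chosen after seeing the data, the means were 2.16 in Irf7-positive and 0.28 in Irf7-negative TAK-981 cells, and 0.25 and 0.08 in the vehicle cells. A UMI of these 15 targets was seen in 50.7% of Irf7-positive and 18.0% of Irf7-negative TAK-981 cells, and in 11.8% and 7.21% of the vehicle cells. In that recount every other member kept its direction in the TAK-981 library. With vehicle Irf4 was no longer reversed, at 0.11 in positive and 0.09 in negative cells, while Irf2 was, at 0.085 and 0.090. An Irf9 UMI was found in 22.9% of Irf7-positive and 10.8% of Irf7-negative TAK-981 cells, and in 4.55% and 3.41% of the vehicle cells. These cells come from 1 library per arm, the values describe those libraries, and the differences between them were not tested.

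The genes whose levels over the 6 class-by-library groups most resembled each member were found by the distance between centred log2(CPM + 10) profiles. For Irf7 they were Rtp4 (distance 0.91), Irgm1 (1.10) and Gbp2 (1.18), against a range of 6.02 in the Irf7 profile. For Irf2 they were Arid5a (0.17), Uba7 (0.42) and Casp8 (0.48), and Arid5a stood at 110 CPM in TAK-981 and 40.6 CPM in vehicle T cells. For Irf9 they were Tapbp (0.73), Serpina3f (0.78) and Iigp1 (0.78), and for Irf1 they were Gpr65 (0.59), Gnai2 (0.61) and Prr13 (0.62). Irf8 was nearest to Sypl (0.40), Bmpr1a (0.60) and Tefm (0.61), and Irf5 to Rnf130 (0.46), Laptm4a (0.49) and Hdac5 (0.49). Irf3 (nearest Mnd1, Kbtbd3 and Ivd) and Irf4 (nearest Trdmt1, Ubxn4 and Tspyl1) had ranges of only 0.88 and 0.78 on this scale, so many genes lie near them. The 10 added to each CPM narrows the range of genes at low levels. Without it Irf3 ran from 18.7 CPM in vehicle myeloid to 42.7 CPM in TAK-981 T cells. Irf4 ran from 5.45 CPM in vehicle A20 to 16.5 CPM in TAK-981 myeloid cells.

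Exons of some members overlap exons of another gene in the GENCODE vM21 annotation, and how reads there were assigned was not examined. Phrf1, on the strand opposite to Irf7, was at 22.5 CPM in TAK-981 and 22.0 CPM in vehicle T cells and at 31.0 CPM in TAK-981 and 29.7 CPM in vehicle A20 cells. Rnf31, on the same strand as Irf9, was at 13.1 CPM in TAK-981 and 11.1 CPM in vehicle A20 cells, and it had 6 UMIs in TAK-981 T cells and 17 in vehicle ones. Neither gene was at least 2-fold higher where the member beside it was. In myeloid cells, where Irf9 was under 2-fold, Rnf31 had 7 UMIs in the TAK-981 library and 2 with vehicle (log2 2.36, -0.03 to 5.67). Phrf1 had 9 UMIs in the myeloid cells of each library. Irf3 overlaps Bcl2l12, Irf5 overlaps Tnpo3 and Irf1 overlaps Gm17334, each on the opposite strand, and no overlap was annotated for Irf2, Irf4 and Irf8.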

How the data were processed

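Single-cell RNA was measured in 1 TAK-981 and 1 vehicle tumour library. Per the labels' protocols, tumours were dispersed mechanically, dead cells were removed and a Chromium single-cell 5' kit was used. The authors deposited raw UMI counts (whole numbers) for every gene in every barcode, per the file headers and values. Cell Ranger 2.1.1 and Seurat 2 are named in the submitters' processing notes, and the genome build is not given in the sources used here. Counts were summed over the cells of a class, divided by the class sum and compared as log2 ratios with exact conditional binomial 95% intervals. Levels carry exact Poisson and shares exact Clopper-Pearson intervals, and a ratio against 0 UMIs uses a floor of 3 UMIs over the class. Members and pathway genes were read as measured with at least 10 UMIs over both libraries. Thinning to 4000 UMIs per cell was without replacement. Doublets were not called; no barcode passed both the T cell and the myeloid gate. The members, gates, lists, markers and alternatives were chosen with earlier results of these data known. All members are named, with up to 5 genes of the highest and 3 of the lowest log2 ratio per class from the lists, the 3 nearest genes by profile, and further list genes chosen after their values were seen. Some genes of the lists are not reported here. The ratio intervals were checked on simulated Poisson counts only, which follow the model of the interval and hold no clumping of UMIs within cells. The protein comparison that had been planned was not run. Python 3.11.15 was used with scipy 1.17.1, matplotlib 3.10.9, numpy 2.4.6 and pandas 2.3.3.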

Additional observations from a re-analysis of the deposited data

Results flagged for a closer look

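Barcodes outside the comparisons also carried the family. Among barcodes under the mitochondrial limit that passed no gate, 182 with TAK-981 and 160 with vehicle, the counting interval lay above 0 with a ratio of at least 2-fold for Irf9 (55 UMIs in TAK-981, 12 in vehicle, log2 ratio 2.37), Irf7 (122 and 34, 2.02) and Irf4 (25 and 10, 1.50). Irf4 was under 2-fold in each of the 3 classes. The share of all genes that pass the same call was not computed for these barcodes. It was not computed for the barcodes with a high mitochondrial share either, so the members have no background to stand beside there.

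Among barcodes with 10% or more of their UMIs from mitochondrial genes, 376 with TAK-981 and 124 with vehicle, the same held for Irf7 (96 UMIs in TAK-981, 8 in vehicle, log2 ratio 2.32), Irf9 (153 and 14, 2.19) and Irf1 (221 and 38, 1.28). Most of these barcodes, 275 with TAK-981 and 88 with vehicle, met the A20 gate otherwise, and in them Irf9 had 106 and 7 UMIs (log2 ratio 2.61) and Irf1 had 161 and 22 (1.56).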

How the results depend on the processing

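Each count, median and member was recomputed under 18 alternatives, 4 of them added after seeing the data (host cells with C1q, S100a8 or S100a9, or NK-type transcripts, or A20-gated cells with plasmacytoid dendritic transcripts, left out). Of 162 recomputed counts and medians 161 were read as keeping their size. A count that went from 2 to 3 or from 3 to 4 was not read as moved, nor was a median inside its counting interval. Over the alternatives the number of members at least 2-fold higher ran from 3 to 5 in T cells and from 2 to 3 in myeloid cells. It stayed at 2 in A20 cells. The 1 count read as moved came from weighting each cell equally, which gave 5 in T cells, Irf5 and Irf8 being added. Of 432 recomputed member ratios, 426 moved by less than their counting interval and 6 did not, in either case with no change of a direction that had exceeded counting error. These 6 log2 ratios were Irf5 in T cells at 3.22 when thinned and 2.29 without cells rich in B cell UMIs, Irf7 in myeloid cells at 3.04, Irf9 in T cells at 2.58 and in A20 cells at 2.00, all when thinned, and Irf8 in A20 cells at 0.61 under median-of-ratios scaling. Irf7 stayed between 3.25 and 3.74 in T cells, 3.04 and 3.95 in myeloid cells and 2.18 and 2.29 in A20 cells. Irf1 was above 2-fold in myeloid cells under some alternatives (log2 0.73 to 1.11). Leaving out barcodes in both host gates changed nothing, as there were none. No paired analysis was possible because each arm has 1 library and the labels give no replicate numbers. With 39 to 60 host cells per library, depth limits Irf3, Irf4 and Irf5 in those classes, and the spread between mice is unknown.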
